A study of Mus musculus with 4 samples.

Results

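The complement genes described here are 9 of the 32285 genes in the deposited tables, chosen by symbol: C1qa, C1qb and C1qc, which encode the chains of C1q, then C2, C4b, C3 and Cfb, which encode the parts of the C3 convertases, and C3ar1 and C5ar1, which encode receptors for the fragments C3a and C5a. They were read by Visium, a method that lays a tissue section on an array of barcoded spots and counts the polyadenylated RNA caught by each, in 4 sections of MC38 tumors. MC38 is a colon carcinoma line from a C57BL/6 mouse. All hosts were female F1 mice of 8 to 12 weeks with MC38 cells injected under the skin. All were given 200 µg of isotype control antibody (clone 2A3) once tumors measured 75 to 110 mm3, and tumors were taken 48 h later. In the CC075F1 group (2 sections) the parents were C57BL/6J and CC075/UncJ, and in the CC080F1 group (2 sections) they were C57BL/6J and CC080/TauUncJ. The second parent in each cross is a Collaborative Cross strain, an inbred line that mixes several founder genomes. The study classes CC075F1 as a responder strain to anti-PD-1 and CC080F1 as a non-responder, but no anti-PD-1 treated section was analysed here. Sections are numbered by the replicate number of their label. The tumor cells were the same line in every host, and there were 2 sections a strain. The labels give no batch, so a strain difference cannot be told apart from other differences between these sections.

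C1q binds antibody complexes and dying cells and opens the classical pathway, in which C4 and C2 are cleaved to form a C3 convertase. Factor B takes the place of C2 in the alternative pathway, which amplifies the deposition of C3. The small fragments C3a and C5a act on myeloid cells through their receptors. In tumors C1q is known as a product of macrophages, while fibroblasts, endothelial cells and tumor cells can also make C3, and interferon-γ is a known inducer of several complement genes.

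The unit was the UMI (unique molecular identifier), which marks 1 captured RNA molecule. The sections held 2710 to 3276 spots and 82594649 to 146460975 UMIs, with a median of 31139 to 41740 UMIs a spot. A spot covers several cells, so all placements below are of spots and not of cells. Of 3994 barcodes seen under tissue, 1666 were present in all 4 sections, since a barcode names a position on the array. All 12 genes of a macrophage list (Adgre1, Csf1r, Cd68 and others) and all 12 of a stroma list (Col1a1, Dcn, Pdgfra and others) were detected in every section. CC075F1 section 2 stood apart by several marker lists. Its summed muscle markers were at 153 CPM (UMIs per 1000000 UMIs of the section) against 3.88 to 17.1 CPM in the other sections. Its B cell list was also highest (21.4 against 2.89 to 5.18 CPM), as was its erythrocyte list (387 against 23.9 to 157 CPM). Its stroma list was lowest (1424 against 2456 to 3634 CPM). So were its neutrophil list (59.9 against 213 to 269 CPM) and its dendritic list (96.1 against 186 to 245 CPM). Over 1% of UMIs came from skin, muscle or fat markers in 28 of its spots. Its TMM factor, which corrects edgeR's library size for composition, was 0.745 against 1.07 to 1.16 in the others.

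The genes lie in few places of the genome. On GRCm38 (GENCODE vM21) C1qb (4:136880129-136886187), C1qc (4:136889804-136893065) and C1qa (4:136895917-136898803) stood side by side on the minus strand within 18675 bases of chromosome 4. C4b (17:34728380-34743882), Cfb (17:34856374-34862518) and C2 (17:34862604-34898265) shared a stretch of chromosome 17, also on the minus strand, and Cfb and C2 were separated by 85 bases. C3 lay farther along the same chromosome (17:57203970-57228136), C3ar1 on chromosome 6 (6:122847138-122856161) and C5ar1 on chromosome 7 (7:16246743-16259540). C4b has a near-identical neighbour, C4a, that received 32 to 81 UMIs a section against 421 to 1521 for C4b, so the split of reads between both is uncertain.

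RefSeq promoter windows (GRCm38.p6, 250 bases before to 50 after the start, each read 5′ to 3′ on the minus strand) were at hand for 5 of the 9 genes: C1qb, C1qc, C3, C3ar1 and C5ar1. The windows of C1qb and C1qc are shown because their transcripts kept similar proportions (below), and that of C3 because C3 differed most between IFN-high and IFN-low spots. Capitals mark matches to the motifs searched on both strands.

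C1qb (chr4:136886151-136886450): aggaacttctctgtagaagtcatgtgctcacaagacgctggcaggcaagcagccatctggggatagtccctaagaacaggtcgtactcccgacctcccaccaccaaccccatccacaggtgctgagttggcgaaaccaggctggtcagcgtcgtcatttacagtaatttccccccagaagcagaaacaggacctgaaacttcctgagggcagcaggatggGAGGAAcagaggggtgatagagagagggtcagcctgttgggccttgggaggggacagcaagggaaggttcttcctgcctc

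C1qc (chr4:136892865-136893164): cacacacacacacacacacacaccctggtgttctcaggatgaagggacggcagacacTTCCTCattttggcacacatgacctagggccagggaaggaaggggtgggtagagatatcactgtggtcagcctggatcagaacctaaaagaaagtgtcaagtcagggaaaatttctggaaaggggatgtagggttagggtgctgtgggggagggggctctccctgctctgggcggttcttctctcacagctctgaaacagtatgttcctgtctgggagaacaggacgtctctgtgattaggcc

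C3 (chr17:57228087-57228386): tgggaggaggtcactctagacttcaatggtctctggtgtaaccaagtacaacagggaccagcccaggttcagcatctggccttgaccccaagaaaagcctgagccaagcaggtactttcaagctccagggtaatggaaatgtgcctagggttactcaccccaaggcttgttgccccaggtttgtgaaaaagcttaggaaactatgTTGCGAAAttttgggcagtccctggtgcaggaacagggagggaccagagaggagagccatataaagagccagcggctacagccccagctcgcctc

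The motifs searched were GAGGAA (the core bound by PU.1, a myeloid transcription factor), GAAANNGAA (a core of ISRE, bound by interferon regulatory factors) and TTGCNNAA (bound by C/EBP factors). The first and the second can overlap in GAA. GAGGAA was found in C1qb, with its first base at position -30 from the start site, and on the opposite strand in C1qc at -193. It was present in 28.3% of all 32841 windows in the table. C3 held TTGCNNAA at -45, as did 10.8% of windows. GAAANNGAA, present in 8.56% of windows, was found on the opposite strand of C5ar1 at -66. A match is a stretch of letters and was not tested as a binding site.

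The first comparison was between host strains over whole sections. On the TMM-scaled level the C1q genes and C3 were higher in both CC075F1 sections than in both CC080F1 sections, Cfb was lower, and the other 4 genes overlapped. By CPM of the section total the C1q genes and Cfb kept this order, but C3 overlapped (17.5 and 13.5 against 5.06 and 16.3) and C5ar1 was lower in both CC075F1 sections (12.7 and 14.4 against 14.6 and 15.4). None of the 9 differences passed edgeR's quasi-likelihood test after Benjamini-Hochberg adjustment over all genes. In these summed sections, more cells of a type and more RNA per cell cannot be told apart.

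On the scale of TMM-scaled CPM, C1qa stood at 630 and 866 in CC075F1 sections 1 and 2 and at 373 and 476 in CC080F1 sections 1 and 2. C1qb stood at 757 and 1265 against 419 and 589. C1qc stood at 533 and 754 against 318 and 369. The groups of these 3 genes did not overlap, which held with CC075F1 above CC080F1 for 16.2% of all tested genes and with CC075F1 below for 18.3% (6.63% and 30.3% by CPM of the section total). The fitted log2 difference between strains was 0.82 ± 0.33 (SE) for C1qa, 1.01 ± 0.39 for C1qb and 0.91 ± 0.31 for C1qc, and edgeR's adjusted p was 0.83, 0.83 and 0.755. With library size alone, which leaves out the TMM factors (lowest in CC075F1 section 2), they were 0.49, 0.66 and 0.57, and leaving out a section gave 0.58 to 1.03, 0.60 to 1.33 and 0.64 to 1.13, each lowest without CC075F1 section 2. The summed TMM-scaled level of the 12-gene macrophage list had the same order, at 4794 and 4593 in CC075F1 against 2723 and 3050 in CC080F1. Other macrophage lists did not. A list of 6 resident-like macrophage genes had the opposite order, at 33.5 and 48 in CC075F1 against 144 and 190 in CC080F1. A list of 6 Spp1-type macrophage genes overlapped, at 453 and 809 against 473 and 815. Per 100 UMIs of the 12-gene list the 3 C1q genes together gave 40.1 and 62.8 UMIs in CC075F1. In CC080F1 they gave 40.8 and 47 UMIs, so the groups overlapped. In macrophage-rich spots alone (defined below) the log2 differences were 0.87, 1.04 and 0.91 for C1qa, C1qb and C1qc, as large as in whole sections.

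Cfb, the protease of the alternative convertase, took the opposite order. It measured 34.4 and 40.9 TMM-scaled CPM in CC075F1 against 46.1 and 76.9 in CC080F1, and its log2 difference was -0.71 ± 0.27 (adjusted p = 0.83), or -0.28 without CC080F1 section 2 and -1.03 without CC080F1 section 1. C2, its classical counterpart, measured 2 and 5.18 against 1.14 and 2.51, groups that overlapped (log2 difference 0.98 ± 0.56, adjusted p = 0.83). Without CC075F1 section 2 the difference of C2 was 0.13, without CC080F1 section 1 it was 0.52, without CC075F1 section 1 it was 1.504, and without CC080F1 section 2 it was 1.66. The ratio of the UMIs of these neighbouring genes did not overlap between strains, with 0.058 and 0.127 C2 UMIs per Cfb UMI in CC075F1 against 0.0247 and 0.0327 in CC080F1. An exact permutation test of this ratio gave p = 0.333, the smallest that 2 against 2 sections allow.

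C3, the central component, measured 16.2 and 18.2 TMM-scaled CPM in CC075F1 against 4.34 and 15.3 in CC080F1. CC080F1 section 1 was low and section 2 was close to the CC075F1 sections (log2 difference 0.81 ± 0.5, adjusted p = 0.83). C4b had the same low section, with 11.6 and 11 in CC075F1 against 3.86 and 12.7 in CC080F1 (0.46 ± 0.48, adjusted p = 0.849). Without CC080F1 section 2, which leaves the low section to stand for its strain, the differences of C3 and C4b were 1.99 and 1.56. Without CC080F1 section 1 they were 0.17 and -0.16. The receptors overlapped between strains, with C3ar1 at 64.4 and 74.9 against 63.7 and 65 (0.11 ± 0.19, adjusted p = 0.901) and C5ar1 at 11.7 and 19.4 against 12.5 and 14.4 (0.21 ± 0.27, adjusted p = 0.871). C5ar1 was at -0.19 without CC075F1 section 2 and at 0.53 without CC075F1 section 1, and C3ar1 was at 0.01 and 0.22.

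In all, 0 of the 9 genes passed edgeR's test between strains, against 0.0899% of the 15572 genes tested. At an unadjusted p under 0.05 there were 4, namely C1qa, C1qb, C1qc and Cfb, against 5.43% of all genes, and DESeq2 called 1 of the 9 (C1qc), against 1.27%. The median log2 difference was 0.81 over the 9 genes and -0.02 over all genes tested. Scaling by library size alone moved the median of all genes to -0.31, and under it C3ar1 and C5ar1 had the opposite sign.

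**Figure D1:**
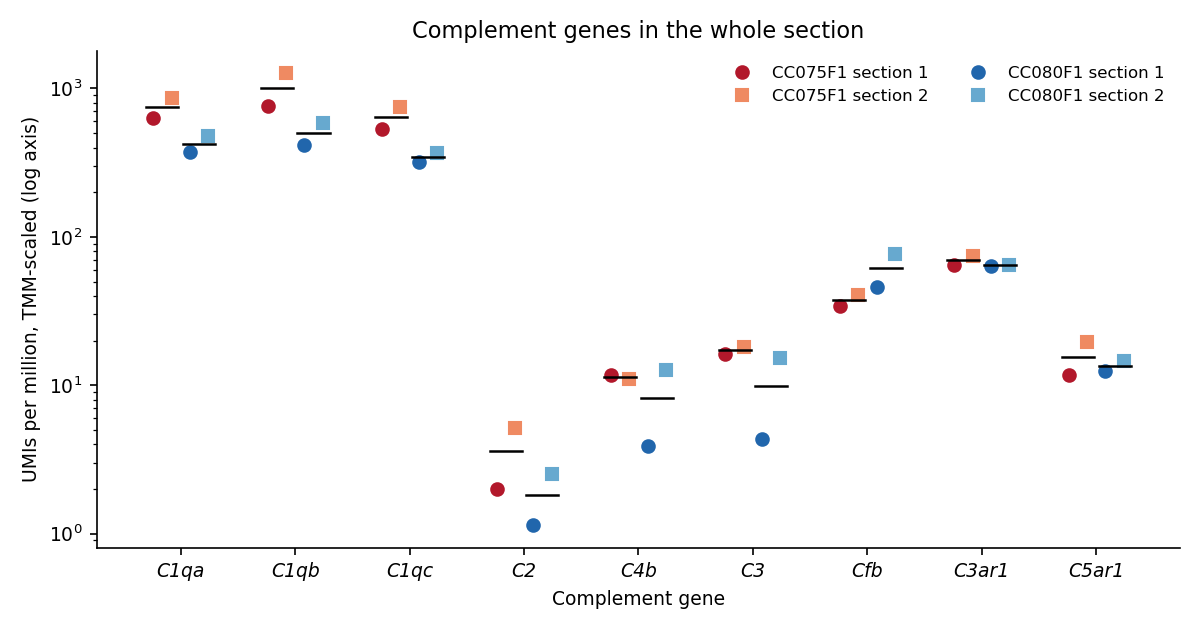
Level of each complement gene in the 4 sections, in TMM-scaled CPM on a log axis. Each point is a section and each bar the mean of 2 sections of a strain. C1qa, C1qb, C1qc and, on this scale but not by CPM of the section total, C3 lie higher in both CC075F1 sections and Cfb lies lower, while C3 and C4b are low in CC080F1 section 1 alone.

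The C1q genes kept nearly fixed proportions. C1qa made up 32.8% and 30% of C1q UMIs in CC075F1 against 33.6% and 33.2% in CC080F1. C1qb made up 39.4% and 43.8% against 37.7% and 41%, and C1qc 27.8% and 26.1% against 28.7% and 25.7%. The groups overlapped for C1qb and C1qc and not for C1qa, with exact permutation p of 0.667, 1 and 0.333, of which the last is the smallest that this design allows. The ranges also stayed close within macrophage-rich spots, where C1qb made up 37.2% to 43.9% of C1q UMIs, and stroma-rich spots, where it made up 37.8% to 43%.

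How widely a gene was captured separated the members. Each C1q gene had at least 1 UMI in 98.8% to 99.97% of spots, so presence alone does not place C1q. C3ar1 was found in 81.4% to 87.3% of spots and Cfb in 59.4% and 61.6% of spots in CC075F1 against 74.4% and 84.6% in CC080F1. C3 was found in 14% of spots of CC080F1 section 1 and in 32.6% to 33.7% of the other sections, and C4b likewise in 13.1% and in 26.3% to 31.3%. C5ar1 was found in 29.9% to 44.4% of spots. C2 was the sparsest, with 4.09% of spots in CC080F1 section 1 (95% exact interval 3.39% to 4.89%) and 14.3% in CC075F1 section 2 (13.1% to 15.5%). After thinning every spot to 10000 UMIs, Cfb was found in 30.4% and 26.4% of CC075F1 spots and 39.4% and 52.7% of CC080F1 spots, in the same order of strains. The shallower spots left out by thinning numbered 160 and 102 in CC075F1 against 53 and 205 in CC080F1.

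The next comparison asked where in the tumor each gene was found. Spots were called macrophage-rich when their macrophage-list score was in the top 25% of the section and their stroma-list score was not, and stroma-rich in the converse case. Neither list holds any of the 9 genes. This gave 390 to 537 spots of each class in a section, beside 191 to 429 spots rich in both lists. The C1q genes, C3ar1 and Cfb were higher in macrophage-rich spots, C2 and C3 were higher in stroma-rich spots, and C4b and C5ar1 did not pass the test.

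C1qb measured 969 CPM (here per 1000000 UMIs of the class of spots) in macrophage-rich and 778 CPM in stroma-rich spots of CC075F1 section 1, and 1300 and 1054 CPM in section 2. In CC080F1 the same values were 583 and 470 CPM in section 1 and 814 and 592 CPM in section 2. Macrophage-rich spots were higher in every section, by a log2 difference of 0.39 ± 0.03 (edgeR's adjusted p = 3.6e-06). C1qa (0.33 ± 0.03, adjusted p = 9.8e-06) and C1qc (0.40 ± 0.03, adjusted p = 3.03e-06) were alike. C1q was found in every class of spots, and those rich in neither list still held 453 to 811 CPM of C1qb. The ratio of macrophage-rich to stroma-rich spots ran from 1.17 to 1.37 over the 3 genes and 4 sections, against 1.22 to 1.48 for the list that chose the spots.

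C3ar1, the C3a receptor, also stood higher in macrophage-rich spots in all 4 sections, with ratios of 1.26 and 1.29 in CC075F1 against 1.14 and 1.26 in CC080F1 (log2 difference 0.34 ± 0.04, adjusted p = 0.000178). C5ar1, the C5a receptor, had ratios of 0.974 to 1.08 and a log2 difference of 0.09 ± 0.07 (adjusted p = 0.564).

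The convertase genes split. C2 measured 4.57 CPM in stroma-rich against 1.59 CPM in macrophage-rich spots of CC075F1 section 1 and 8.03 against 3 CPM in section 2. In CC080F1 it measured 2.66 against 0.835 CPM and 5.38 against 2.12 CPM. These levels rest on 14 to 102 UMIs a class, yet the ratio stayed between 0.313 and 0.394 and the log2 difference was -1.41 ± 0.15 (adjusted p = 3.57e-05). C3 had 26.2 against 15.7 CPM and 26.8 against 13.6 CPM in CC075F1 and 7.5 against 5.25 CPM and 28 against 14.6 CPM in CC080F1, again higher in stroma-rich spots of every section (-0.79 ± 0.08, adjusted p = 1.82e-05). C4b leaned the same way in 3 of 4 sections, with a ratio of 1.04 in CC075F1 section 1 and 0.633 to 0.693 in the rest (-0.37 ± 0.11, adjusted p = 0.0711). It passed the test with library size alone (-0.41), without the filter on low counts (-0.37) and without CC075F1 section 1 (-0.55).

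Cfb, although next to C2 in the genome, was placed with the macrophage-rich spots. Its ratio was 1.1 and 1.29 in CC075F1 against 1.42 and 1.4 in CC080F1, and the log2 difference was 0.43 ± 0.05 (adjusted p = 0.000172). There were 0.117 and 0.204 C2 UMIs per Cfb UMI in stroma-rich spots of CC075F1 and 0.0369 and 0.0593 in macrophage-rich spots. In CC080F1 there were 0.0501 and 0.0643 in stroma-rich and 0.011 and 0.0181 in macrophage-rich spots. The ratio was thus higher in stroma-rich spots in 4 of 4 sections.

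**Figure D2:**
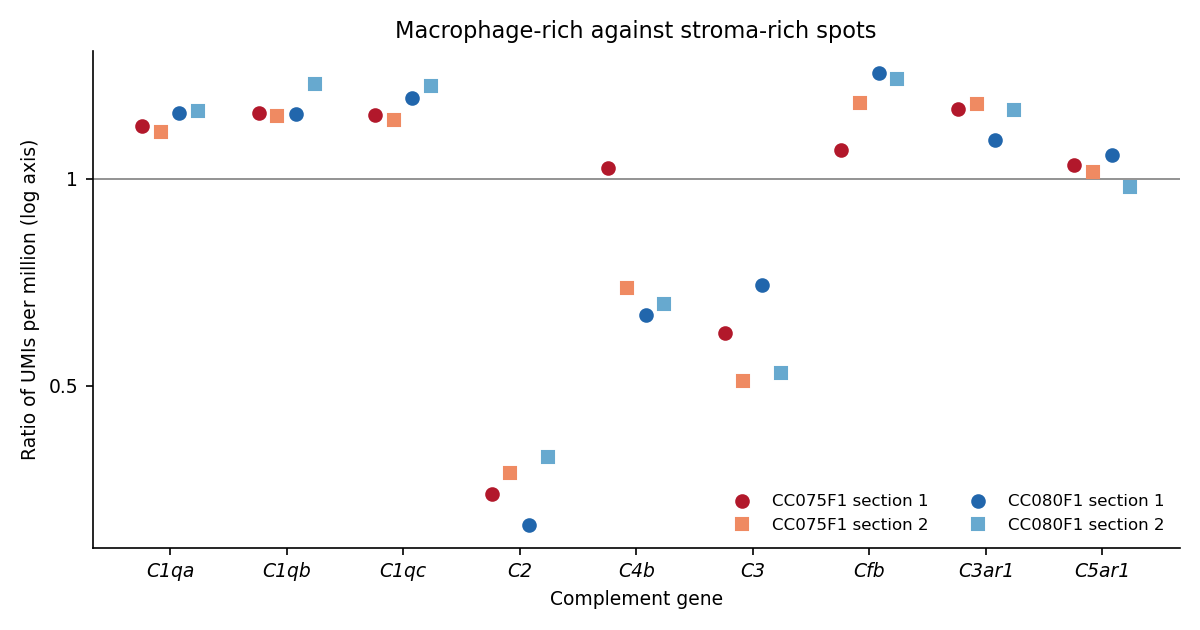
Ratio of macrophage-rich to stroma-rich spots for each gene, on a log axis with a line at 1, each point a section. C1qa, C1qb, C1qc, Cfb and C3ar1 lie above 1 in all 4 sections, and C2 and C3 lie below 1 in all 4.

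Of the 9 genes, 5 were higher in macrophage-rich spots, against 3.47% of the 12950 genes tested, and 2 were higher in stroma-rich spots, against 3.28%. Stroma-rich spots were shallower, with median depths of 26264 to 31822 UMIs against 32654 to 37445 UMIs, and 38.4% to 40.3% of them lay at the tissue edge against 9.87% to 26.1% of macrophage-rich spots. Endothelial markers moved with the stroma-rich spots, where the summed list of 8 genes was higher in every section (macrophage-rich to stroma-rich ratios of 0.552 to 0.727), and their part was not tested. Among interior spots alone the same 7 genes passed the test, with C2 at -0.96 and C3 at -0.34, while C4b was at 0.08. With the score taken as summed UMIs, C3 no longer passed (adjusted p = 0.236). None of the 9 was called for a strain difference in this contrast by edgeR's interaction test, against 0.0386% of genes, and 1 (C4b) had an unadjusted p under 0.05, against 4.22%.

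Spots rich in both lists held the highest level of C3, C4b, Cfb and C5ar1 in each section. They also held that of C1qa in every section but CC080F1 section 1. The same was true of C1qc and C3ar1 in every section but CC075F1 section 1. For C1qb and C2 it was true in CC075F1 section 2 and CC080F1 section 2. C3 reached 38.2 and 65.5 CPM there in CC075F1 against 9.34 and 66 CPM in CC080F1, which was 2.46 to 12.5 times its level in spots rich in neither list. C4b was 1.77 to 6.29 times and C2 2.36 to 7.25 times its level in those spots. Cfb was 1.58 to 4.29 times its level there, C1qa 1.29 to 2.09 times, C3ar1 1.17 to 1.69 times and C5ar1 1.17 to 1.82 times. These ratios are given as a description, without a test.

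**Figure D3:**
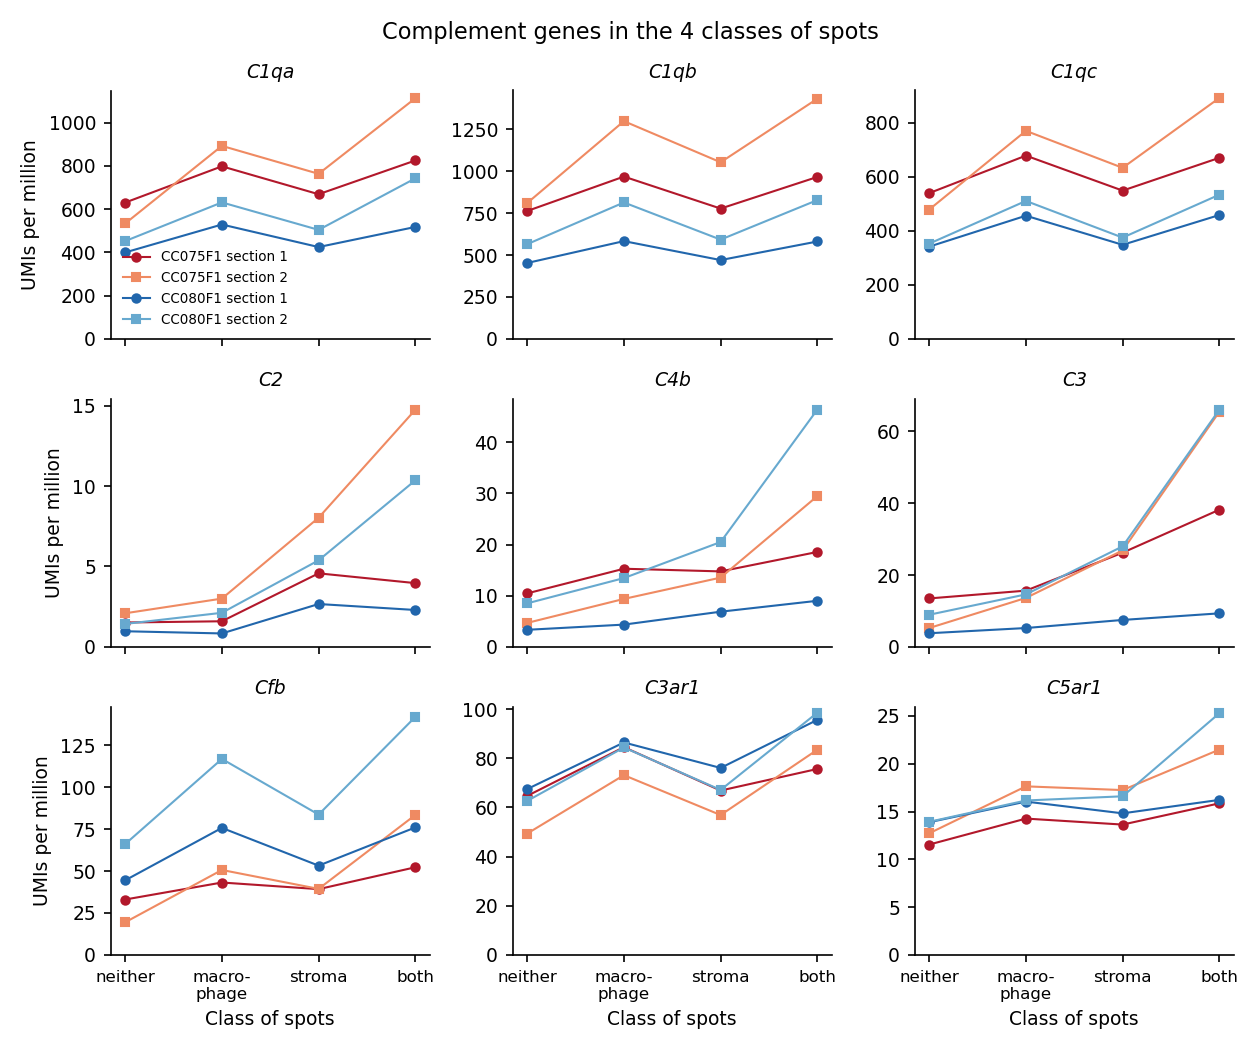
Level of each gene in CPM in spots rich in neither list, in the macrophage list, in the stroma list and in both, with lines joining the classes of a section. C2, C3 and C4b climb toward the stroma-rich and double-rich spots in most sections, whereas C1q genes and C3ar1 dip between the macrophage-rich and stroma-rich spots.

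The genes most like each member across spots followed the same split. The measure was the mean over 4 sections of the within-section Pearson r across spots of log2(UMIs per 10000 + 1), over 4820 genes. Spots of a section share a library and differ in depth, so the values are descriptive. C1qa was most like C1qc (mean r = 0.492), C1qb (0.48) and Tmsb4x (0.419). C1qb had Tyrobp, a myeloid signalling adaptor (0.443), and C1qc had Ctss, a lysosomal protease (0.425), as the first gene outside the C1q chains. C3 was most like Col1a2 (0.425), Bgn (0.4) and Col1a1 (0.398), which are matrix genes. C4b had the same set, with Bgn (0.322), Col1a1 (0.318) and Col1a2 (0.317), and C2 had Col1a2 (0.276), Postn (0.262) and Bgn (0.26). Sections differed widely, and r of C4b with Bgn ran from 0.057 to 0.516. That of C3 with Col1a2 ran from 0.204 to 0.573, and that of C2 with Col1a2 from 0.17 to 0.417.

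Cfb was most like Ly6a (0.376), Ly6e (0.339) and Cxcl9 (0.335). Ly6a and Cxcl9 are known as interferon-responsive genes. The receptors had weak likenesses. C3ar1 had Ctsb (0.182), Grn (0.179) and Fcer1g (0.174), and C5ar1 had Col1a1 (0.132), Ctsb (0.125) and Col1a2 (0.124). Across all pairs outside the C1q chains the largest mean r between members was 0.314, for C1qa with Cfb. By the mean over sections C1qa was also the most clustered, with a Moran's I (likeness of adjoining spots) of 0.268 and a range of 0.175 to 0.494, against 0.0275 to 0.0553 for C5ar1. C1qc was slightly higher than C1qa in CC075F1 section 1 (0.177 against 0.175), as was C3 in CC080F1 section 2 (0.206 against 0.203). Neither r nor Moran's I was adjusted for abundance, whose part in these rankings was not tested. C1qa had 40662 to 94503 UMIs a section, against 1046 to 2116 for C5ar1.

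The third comparison asked whether the genes followed interferon signalling within the tumor. IFN-high and IFN-low spots were the top and bottom 25% of each section by the score of 12 interferon-γ target genes (Cxcl9, Irf1, Gbp2 and others, none of them a member). C3, C2, Cfb and C4b were 2.1 to 3.65 times higher in IFN-high spots by the fitted folds, C1qa, C1qb and C1qc were 1.28 to 1.33 times higher, and the receptors did not pass the test.

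C3 measured 32.7 CPM in IFN-high against 9.34 CPM in IFN-low spots of CC075F1 section 1 and 27.8 against 4.68 CPM in section 2. In CC080F1 it measured 8.02 against 3.17 CPM in section 1 and 30.7 against 6.95 CPM in section 2. IFN-high spots were higher in every section, and the log2 difference was 1.87 ± 0.14 (edgeR's adjusted p = 0.000264). C2 had ratios of 3.82 and 5.09 in CC075F1 against 1.76 and 2.98 in CC080F1 (1.59 ± 0.21, adjusted p = 0.00281). Cfb measured 54.1 against 21.8 CPM and 60.7 against 12.2 CPM in CC075F1 and 82.3 against 34.9 CPM in CC080F1 section 1, with a ratio of 2.83 in CC080F1 section 2 (1.43 ± 0.13, adjusted p = 0.00055). C4b had ratios of 1.77 and 3.26 in CC075F1 against 1.83 and 2.73 in CC080F1 (1.07 ± 0.13, adjusted p = 0.00186).

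The C1q genes differed less. C1qa had ratios of 1.24 and 1.99 in CC075F1 against 1.28 and 1.52 in CC080F1 (0.41 ± 0.08, adjusted p = 0.0125), C1qb a log2 difference of 0.36 ± 0.07 (adjusted p = 0.0154) and C1qc of 0.39 ± 0.07 (adjusted p = 0.00871). Without CC080F1 section 2 these 3 calls were lost, with values of 0.39, 0.32 and 0.39. In the same IFN-high spots the summed macrophage list was 1.09 to 1.64 times as high as in IFN-low spots, the stroma list 1 to 2.27 times and the endothelial list 1.31 to 3.75 times. Among spots above the section's median macrophage score, C1qa was at 0.23 (adjusted p = 0.0077), C3 at 1.51 and Cfb at 1.14, and all 7 genes still passed.

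C3ar1 had a log2 difference of 0.12 ± 0.07 (adjusted p = 0.258). C5ar1 ran from 0.763 in CC075F1 section 1 to 1.45 in section 2 and from 0.792 to 1.16 in the CC080F1 sections (-0.14 ± 0.12, adjusted p = 0.481). Among spots above the median macrophage score C5ar1 was lower in IFN-high spots (-0.35, adjusted p = 0.013).

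**Figure D4:**
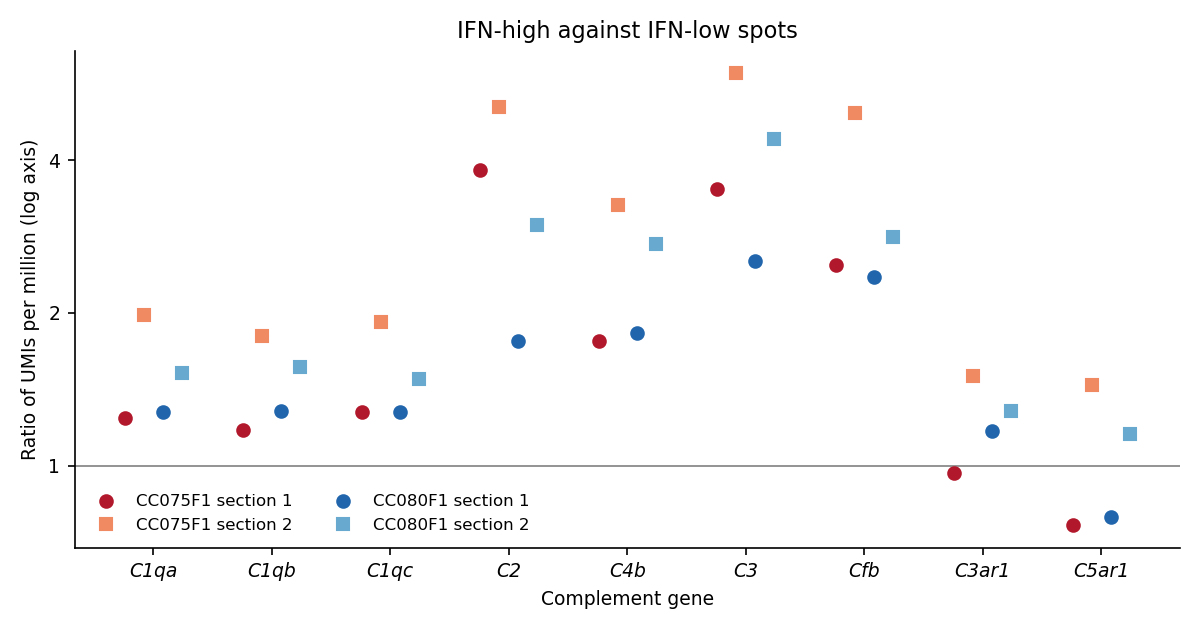
Ratio of IFN-high to IFN-low spots for each gene, on a log axis with a line at 1, each point a section. The convertase genes C2, C4b, C3 and Cfb lie between 1.76 and 5.94, the C1q genes between 1.17 and 1.99, and the receptors on either side of 1.

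Thus 7 of the 9 genes were higher in IFN-high spots, against 10.1% of the 13445 genes tested, with a median log2 difference of 0.41 over the 9 and -0.02 over all. Library size scaling moved the median of all genes to 0.14, and the same 7 genes passed. IFN-high spots were shallower in every section, with medians of 28338 to 34182 UMIs against 34002 to 50402 UMIs in IFN-low spots. In spots of at least 10000 UMIs the same 7 genes passed, with C3 at 1.91. None of the 9 was called for a strain difference in this contrast by edgeR's interaction test, against 0.0149% of genes, and 1 (C2) had an unadjusted p under 0.05, against 5.42%. Without CC075F1 section 1 the strain difference of Cfb in this contrast was 0.76 against 0.37 with all sections, and without CC075F1 section 2 it was -0.04.

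The last comparison was of the tissue edge (spots at most 3 grid steps from a position off tissue) with the interior. There were 567 and 665 edge spots in CC075F1 against 880 and 648 in CC080F1. C3, C4b and C2 had the largest ratios of edge to interior, but none of the 9 genes passed the test, and the sections were unlike each other.

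C3 was at 44.4 CPM in the first step of CC075F1 section 1 and at 10.2 CPM in spots 11 or more steps in. In CC075F1 section 2 it was at 81.5 and 5.83 CPM, and in CC080F1 section 2 at 41.6 and 8.81 CPM. CC080F1 section 1 had 6.97 CPM at the first step, 3.97 CPM at 4 to 6 steps and 5.61 CPM at 11 or more steps. The ratio of edge to interior was 2.18 and 6.29 in CC075F1 against 1.26 and 2.9 in CC080F1 (log2 difference 1.42 ± 0.28, adjusted p = 0.0646). C4b had ratios of 1.34 and 3.71 in CC075F1 against 1.54 and 2.58 in CC080F1 (1.05 ± 0.21, adjusted p = 0.0646), and C2 was below 1 in CC080F1 section 1 (0.886) and at 2.15 to 3.49 in the rest (1.04 ± 0.27, adjusted p = 0.113). Without CC080F1 section 1, C2, C3 and C4b passed the test, at 1.37, 1.70 and 1.18. In that fit 854 of 14362 genes passed, against 125 of 14345 with all sections. Without skin, muscle or fat spots C3 (1.43) and C4b (1.01) passed, in a fit where 251 of 14378 genes did.

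C5ar1 had ratios above 1 in all 4 sections, at 1.11 and 1.29 in CC075F1 against 1.54 and 1.52 in CC080F1, with a log2 difference of 0.38 ± 0.11 (adjusted p = 0.132). In CC080F1 section 2 it was at 25.7 CPM in the first step and 13.3 CPM at 11 or more. C3ar1 ran from 0.871 to 1.16 (-0.03 ± 0.07, adjusted p = 0.854).

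The C1q genes and Cfb took opposite sides of 1 in the strains. C1qa was 1.2 and 1.46 times as high at the edge as inside in CC075F1 and 0.907 and 0.984 times in CC080F1. C1qb was at 1.01 and 1.27 against 0.89 and 0.865, and C1qc at 1.13 and 1.32 against 0.874 and 0.896. Cfb was at 1.34 and 2.27 in CC075F1 against 0.973 and 0.957 in CC080F1. In CC075F1 section 2 Cfb went from 74.5 CPM at the first step to 19.5 CPM at 11 or more steps, while in CC080F1 section 2 it was at 80.7 and 82 CPM. Sections of the strains lay on opposite sides of 1 for 13% of the tested genes. The difference between strains in the edge contrast was 0.34 ± 0.12 for C1qa, 0.22 ± 0.12 for C1qb, 0.32 ± 0.11 for C1qc and 0.72 ± 0.17 for Cfb on the log2 scale, with adjusted p of 0.479, 0.654, 0.478 and 0.216 in edgeR's interaction test.

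**Figure D5:**
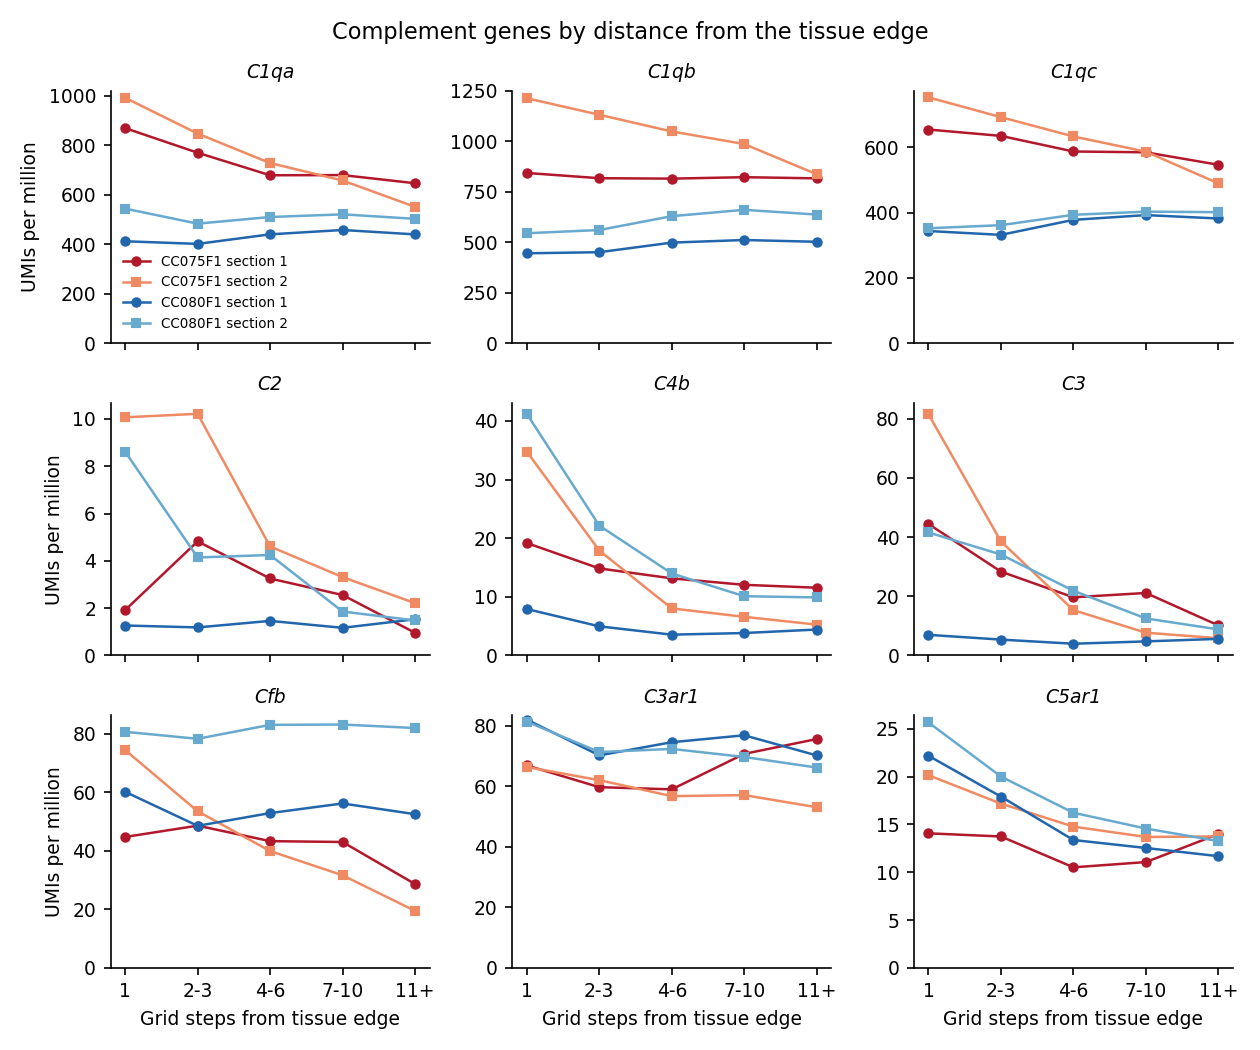
Level of each gene in CPM by grid steps from the tissue edge, with lines joining the bins of a section and each axis starting at 0. C3 and C4b are highest at the first step in every section. In CC080F1 section 1 C3 dips at 4 to 6 steps and rises again farther in. Cfb is lower inside than at the edge in CC075F1 but not in CC080F1 section 2.

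Of the 9 genes, 0 were called between edge and interior, against 0.871% of the 14345 genes tested. At an unadjusted p under 0.05 there were 4 (C2, C3, C4b and C5ar1), against 18.2% of all genes, and DESeq2 called 3 (C2, C3 and C4b), against 4.24%. For the strain difference in this contrast edgeR called 0 of 9, against 0.0837% of genes, and 4 had an unadjusted p under 0.05 (C1qa, C1qc, Cfb and C5ar1), against 8.75%. That of C3 was 0.72 with all sections and 0.004 to 1.46 over the sections left out in turn. The edge was shallower in each section, from 18036 against 33592 UMIs in CC075F1 section 1 to 30120 against 34844 in CC080F1 section 1. The stroma list was 0.988 and 2.84 times as high at the edge in CC075F1 and 0.947 and 1.27 times in CC080F1, and the muscle list 68.5 times in CC075F1 section 2. Their part in the edge values was not tested, apart from the value without such spots.

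Other genes of the pathway were read from a list of 40 (C1r and C1s proteases, lectin pathway, terminal components, regulators, other receptors). Between strains 28 of them passed the filter on low counts and 0 were called (8 at an unadjusted p under 0.05, 4 by DESeq2; 5.43% and 1.27% of all genes), with a median log2 difference of -0.12. Between classes of spots 24 passed the filter, and 4 were higher in stroma-rich spots (3.28% of all genes): Cfd, factor D of the alternative pathway (-2.59 ± 0.33), Serping1, the C1 inhibitor (-1.53 ± 0.1), C1s1, a C1s protease (-1.36 ± 0.13), and Cd93, a receptor of endothelial and myeloid cells (-0.25 ± 0.05). Itgam, a chain of complement receptor 3 and itself in the macrophage list, was the 1 higher in macrophage-rich spots (3.47% of all genes). Cfd is also an adipocyte marker, and the summed adipocyte list was 0.335 to 0.564 times as high in macrophage-rich as in stroma-rich spots.

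At the edge 26 of the other genes were tested and 4 were higher, against 0.788% of all genes: Serping1 (1.57 ± 0.26), Itgax (0.60 ± 0.1), Cfp, which stabilises the alternative convertase (0.55 ± 0.06), and Cd93 (0.53 ± 0.08). None was higher inside. In IFN-high spots 10 of 25 were higher, against 10.1% of all genes, and 0 lower, led by Serping1 (2.10 ± 0.31), Vtn (1.56 ± 0.39), C1s1 (1.38 ± 0.27) and Itgax (0.97 ± 0.1). The medians of the list were -0.18 for macrophage-rich against stroma-rich spots, 0.41 at the edge and 0.37 in IFN-high spots, beside 0.01, -0.02 and -0.02 over all genes tested. For strain differences in these contrasts edgeR's interaction test called 0 listed genes (3, 6 and 4 at an unadjusted p under 0.05, against 4.22%, 8.75% and 5.42% of all genes).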

How the data were processed

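Visium libraries of 4 fresh frozen tumor sections were used. The authors processed reads with Space Ranger 1.3.1 on GRCm38 (mm10, GENCODE vM23). The files deposited by the authors give unnormalized UMI counts for every gene in each spot under tissue, and 1 spot with no UMI was dropped. UMIs were summed per section or per section and class of spots, and tested by the quasi-likelihood method of edgeR 4.0.16 under R 4.3.3, with filterByExpr, TMM factors and, between classes, section as a factor. P-values were adjusted by Benjamini-Hochberg over all tested genes with a threshold of 0.05. Alternatives were DESeq2 1.42.0, other scalings, filters, spot choices and leaving out sections. List scores were means of standardised log2(UMIs per 10000 + 1). Exact (Clopper-Pearson) 95% intervals cover counting error alone. The fits were also run on simulated counts with the same dispersion for all genes. The spread between the real sections was not copied, so that run does not show how the fits perform here.

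Named genes were the 9 members, up to 4 called genes of the pathway list in each direction by size of change, and the 3 genes most like each member. Members and lists were chosen with earlier results of these data known. The spots of at least 10000 UMIs, the macrophage-rich spots alone between strains, and the alternatives of the interaction tests were chosen after seeing the data. Labels name the replicates as biological but give no batch or date.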

Additional observations from a re-analysis of the deposited data

Results flagged for a closer look

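In 4 genes the edge to interior ratio of CPM was above 1 in every CC075F1 section and below 1 in every CC080F1 section. Some ratios were close to 1, with C1qb at 1.01 in CC075F1 section 1 and C1qa at 0.984 in CC080F1 section 2. Cfb was at 0.973 and 0.957 in the CC080F1 sections. The mean edge to interior ratio of CC075F1 divided by that of CC080F1 was 1.41 for C1qa, 1.3 for C1qb, 1.38 for C1qc and 1.87 for Cfb. The interaction test of edgeR gave adjusted p of 0.479, 0.654, 0.478 and 0.216, and the opposite sides were seen for 13% of all tested genes. For Cfb the interaction was 0.41 to 1.00 on the log2 scale over the 4 sections left out in turn, fits that each leave 1 section in a strain.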

How the results depend on the processing

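Values of single genes are log2 differences. No difference of the 9 genes called in the main fits changed sign under any alternative run. Some uncalled values did, and not only those near 0. The strain difference of C4b went from 0.46 to -0.16 without CC080F1 section 1. Its difference between macrophage-rich and stroma-rich spots went from -0.37 to 0.08 in interior spots alone. The strain difference of C2 in the edge contrast went from 0.64 to -0.01 without CC080F1 section 1. Between strains, edgeR called 14 genes, and 40 with library size scaling, 480 without the filter, 194 with DESeq2 (1 member) and 8 in macrophage-rich spots alone. Leaving out a section gave 11 to 207 genes and 0 to 2 members (C3 and C4b without CC080F1 section 2). The replicate block gave 287 genes and 0 members. Replicate numbers do not name shared animals, although sections of the same number deviated together (r = 0.355 across 15572 genes), so this fit is given here alone.

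Between macrophage-rich and stroma-rich spots the 874 genes became 1490 without the filter, 446 with DESeq2 and 541 with summed scores, which left 1 member (C2) higher in stroma-rich spots, and 507 to 838 without a section. At the edge the 125 genes and 0 members became 683 and 3 without the filter, 596 and 3 with DESeq2, 266 and 2 with the outer boundary alone, 251 and 2 without skin, muscle or fat spots, 75 genes in spots of at least 10000 UMIs, 39 with an edge of 5 steps, and 1 to 854 genes and 0 to 3 members without a section. In IFN-high spots the 2307 genes became 477 to 3002 and the 7 members 4 to 7 without a section, and 1 member (C5ar1) was higher in IFN-low spots above the median macrophage score. For the strain difference in the edge contrast 3 members (C3, Cfb and C5ar1) were called without the filter. The share of all genes called under that setting is not given here, so this count cannot be judged against it. Leaving out a section gave 0.004 to 1.46 for C3 and 0.41 to 1.00 for Cfb. For the strain difference in the IFN contrast it gave -0.04 to 0.76 for Cfb.

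The strain ratio of shares of spots moved on thinning from 0.999 to 1.01 for C1qa, from 1 to 1.01 for C1qb, from 1 to 1.03 for C1qc, from 0.761 to 0.616 for Cfb (0.558 for at least 2 UMIs) and from 0.972 to 0.903 for C3ar1. The cause of these changes was not tested. C2 rests on 124 to 565 UMIs a section. Where leaving out a section left 1 for its strain, that section was assumed to vary like the others.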
